A study of Mus musculus with 2 samples.

Results

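Fth1, Ftl1, Hmox1, Slc40a1, Slc11a1, Tfrc, Trf and Blvrb are 8 mouse genes of iron storage, iron transport and heme breakdown, and their levels were read in neutrophils and other cells sorted from tumors of mice with and without Smad3. The genes were taken by symbol, and each of the 8 symbols matched 1 of the 31053 genes of the deposited matrix, of which 19114 had at least 1 unique molecular identifier (UMI, a tag that counts 1 captured mRNA molecule). The libraries were made with a 10x 5′ kit from CD11b+Ly6G+ cells, the surface gate for neutrophils, sorted from subcutaneous tumors of LLC cells, a mouse lung carcinoma line, in C57BL/6 mice aged 8 to 12 weeks. The Smad3-WT mice were Smad3+/+, and the Smad3-KO mice were Smad3-/- with an allele that lacks exon 8 and has a disrupted exon 7 in all cells of the host, while the LLC cells were the same unmodified line in both. For each genotype 8 tumors were pooled into 1 library, so a difference between the libraries has no replicate check and no p-value is given. Intervals are exact 95% intervals and cover counting error only.

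Iron inside a cell is held by ferritin, a shell built of heavy (Fth1) and light (Ftl1) chains, in which the heavy chain oxidizes the iron that is stored. Iron enters from blood bound to transferrin (Trf) through the transferrin receptor (Tfrc), is moved out of phagosomes by the transporter NRAMP1 (Slc11a1) and leaves through ferroportin (Slc40a1), the only known iron exporter of mammals. Heme oxygenase 1 (Hmox1) opens heme and frees its iron, and biliverdin reductase B (Blvrb) reduces biliverdin and flavins. Macrophages recycle iron from red cells, and neutrophils withhold iron from microbes with proteins such as lactoferrin and lipocalin 2.

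Some of these mRNAs carry an iron-responsive element, a short hairpin that iron regulatory proteins bind when iron is low, which blocks translation when the hairpin lies in the 5′ UTR and stabilizes the mRNA when it lies in the 3′ UTR. The hairpins found in the members are shown because their place matters for reading UMIs. A 5′ UTR hairpin acts on translation, which UMIs cannot measure, and a 3′ UTR hairpin acts on the amount of mRNA. The search read the transcript strand of protein-coding mRNAs of GRCm38/mm10 (GENCODE M21) for C, 5 bases, CAGTG followed by A, C or T, and 5 bases that pair with the first 5, with G-T pairs allowed. Capitals mark the 6-base loop, all sequences run 5′ to 3′, and T stands for U. The last base of each line and of its coordinates lies just past the matched pattern.
Fth1, 5′ UTR, chr19:9982738-9982755, plus strand: cttcaaCAGTGCttgaac
Ftl1, 5′ UTR, chr7:45459784-45459801, minus strand: cttcaaCAGTGTttgaac
Slc40a1, 5′ UTR, chr1:45925470-45925487, minus strand: cagctaCAGTGTtagcta
Tfrc, 3′ UTR, chr16:32631225-32631242, plus strand: cggaagCAGTGCcttcca
Tfrc, 3′ UTR, chr16:32631604-32631621, plus strand: cgggagCAGTGTcttcca
Tfrc, 3′ UTR, chr16:32631669-32631686, plus strand: cggagaCAGTGAtctcca
Tfrc, 3′ UTR, chr16:32631716-32631733, plus strand: cgggaaCAGTGTttccca

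The single matches of Fth1, Ftl1 and Slc40a1 lay in 5′ UTRs of 224, 253 and 319 bases, and the 4 Tfrc matches lay in one 3′ UTR of 2461 bases. No match was found in the UTRs of Hmox1, Slc11a1, Trf or Blvrb, which says only that these letters are not in those windows. The search took the annotation's principal transcripts and did not cover every chromosome. Among the genes it read, 17 of 19620 with a 5′ UTR (0.0866%) and 86 of 20175 with a 3′ UTR (0.426%) held a match. The genes lie at chr19:9980598-9985098 (Fth1), chr7:45457944-45459884 (Ftl1), chr8:75093621-75100589 (Hmox1), chr1:45908068-45926523 (Slc40a1), chr1:74375195-74386062 (Slc11a1), chr16:32608920-32632794 (Tfrc), chr9:103204001-103230444 (Trf) and chr7:27447978-27466144 (Blvrb).

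Depth was 23951400 UMIs over 4116 barcodes for Smad3-WT and 4214290 over 2514 for Smad3-KO, and the quality filter left 3520 and 2433 cells with 12176201 and 4146792 UMIs. The upper limit of 20000 UMIs removed 382 Smad3-WT and 0 Smad3-KO cells, and 73 barcode sequences occurred in both libraries, 24 of them among the kept cells. Clusters made without the iron and heme genes were named from marker lists, and despite the sort neutrophil-like cells were 52.3% of the Smad3-WT library and 44.2% of the Smad3-KO library (1840 and 1076 cells, median 740.0 and 1017 UMIs). Macrophage or monocyte-like cells made up 1149 and 175 cells, B cell-like 3 and 576, T or NK-like 53 and 468, dendritic-like 29 and 42, and a group of fibroblast and LLC carcinoma-like cells 446 and 96. Levels below are therefore given within a class, as CPM, the UMIs of the gene scaled to a common class total, which are not scaled by gene length, so no gene is ranked against another. The neutrophil-like cells of the libraries lay mostly in different clusters, 1831 Smad3-WT and 202 Smad3-KO cells in cluster 1, 9 and 809 in cluster 3, led by Il1a, Csf3 and Lcn2, and 0 and 65 in cluster 8, led by Ngp, Camp and Ltf, so the members' ratios are also given within cluster 1. Smad3 itself is no check of the labels in a 5′ library, since the altered exons lie away from the captured end.

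**Figure D1:**
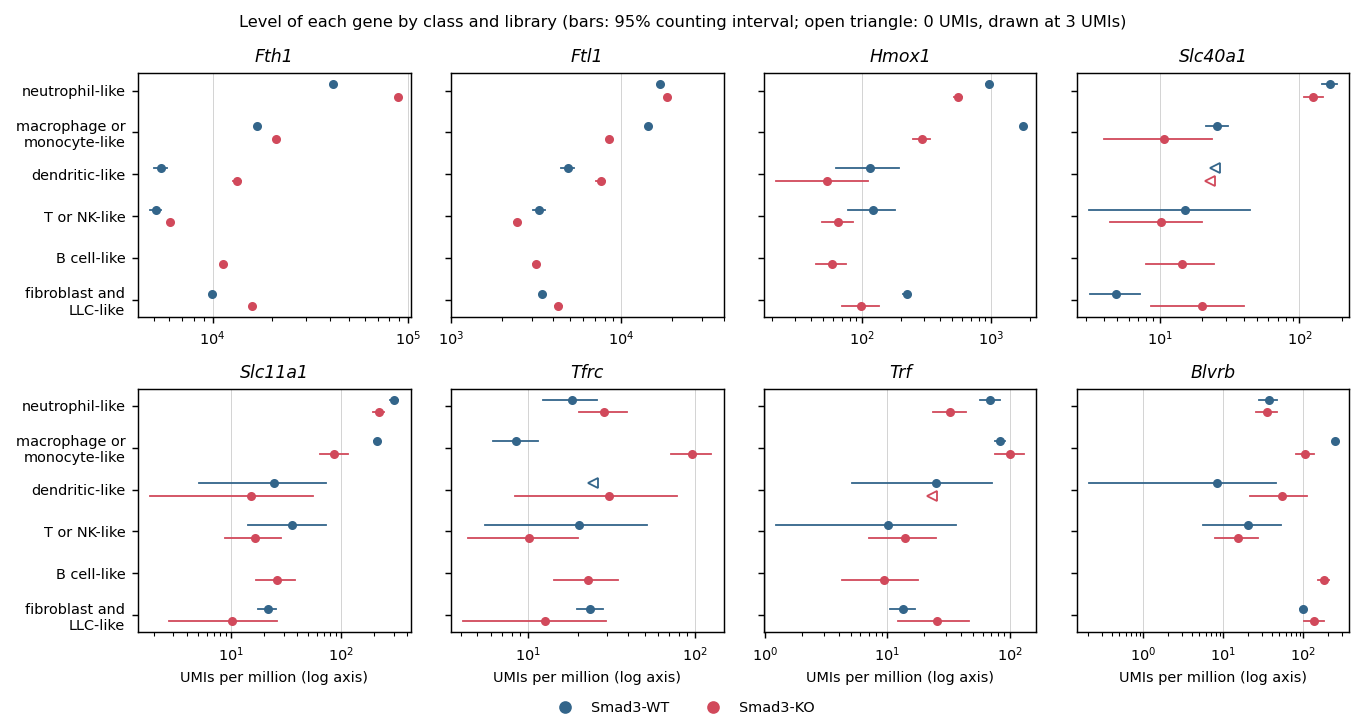
Level of each of the 8 genes in CPM (log axis) by marker-named class, blue for Smad3-WT and red for Smad3-KO, with 95% counting intervals. Fth1 reached 88452 in Smad3-KO neutrophil-like cells against 41400.2 in Smad3-WT, while Hmox1 in macrophage or monocyte-like cells was 289 against 1768, and the 3 Smad3-WT B cell-like cells are not drawn.

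Storage genes came first. Ferritin heavy chain mRNA took up a larger share of the neutrophil RNA in the Smad3-KO library, with 41400.2 CPM of Fth1 in Smad3-WT and 88452 in Smad3-KO neutrophil-like cells (67917 and 116849 UMIs). The ratio of Smad3-KO to Smad3-WT was 2.14 (2.12 to 2.16). Of the 6112 genes with at least 20 UMIs in neutrophil-like cells, 7.76% were at least 2-fold higher and 18.2% at least 2-fold lower in the Smad3-KO library. Fth1 was the 1 member of 8 past 2-fold upward, and Trf was the 1 member past 2-fold downward.

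The Fth1 gap followed the clusters. Within cluster 1, Fth1 stood at 41156 CPM for Smad3-WT and 51300.3 for Smad3-KO, a ratio of 1.25 (1.22 to 1.28), below 2-fold. Cluster 3 of the Smad3-KO library held Fth1 at 105061 CPM, and its 65 immature-marker cells of cluster 8 held 19002 CPM. The 9 Smad3-WT cells of cluster 3 held Fth1 at 99418 CPM (92101 to 107162, 683 UMIs). Since almost no Smad3-WT cell lay in cluster 3, the genotype and that cluster cannot be told apart.

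Per cell, Fth1 made up a median of 3.27% of all UMIs of a Smad3-WT neutrophil-like cell and 8.70% of a Smad3-KO one. At least 10% of the UMIs were Fth1 in 129 of 1840 Smad3-WT cells (7.01%) and in 456 of 1076 Smad3-KO cells (42.4%). The distributions overlapped, but Smad3-KO lay higher at each percentile read. The 10th percentile was at 0.789% and 1.58%, the 25th at 1.62% and 4.70%, and the highest cell at 22.0% and 28.2%. For macrophage or monocyte-like cells the per-cell median of Fth1 was 0.941% and 1.62%.

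**Figure D2:**
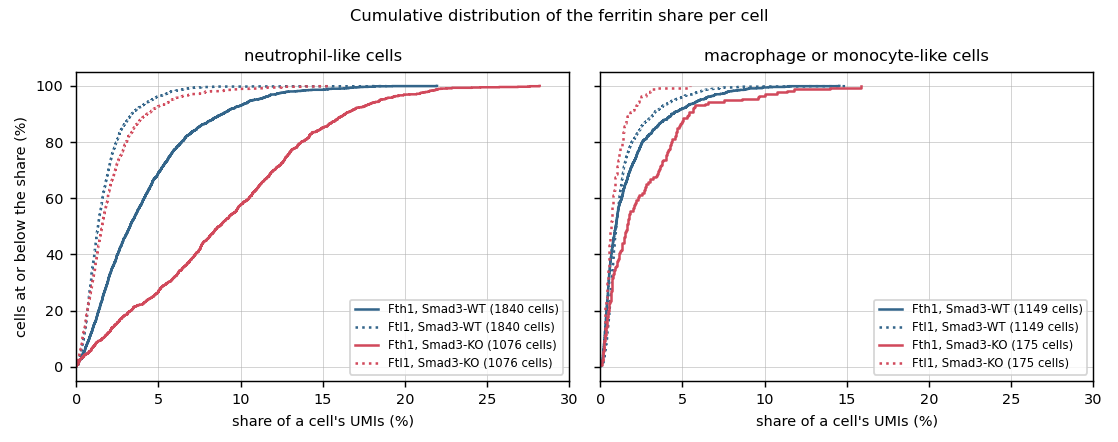
Cumulative share of cells (vertical axis, percent) at or below a given share of UMIs from Fth1 (solid) or Ftl1 (dotted) in the cell (horizontal axis, percent), for Smad3-WT (blue) and Smad3-KO (red). The Fth1 curve of Smad3-KO neutrophil-like cells lies to the right, with a median of 8.70% against 3.27%, while the Ftl1 curves of these cells lie close together, with medians of 1.57% and 1.33%.

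Light chain mRNA differed less than heavy chain mRNA between the neutrophil-like cells of the libraries. Ftl1 was at 17033 CPM in Smad3-WT and 18651 in neutrophil-like cells of Smad3-KO, the ratio being 1.10 (1.08 to 1.11), and at a ratio of 1.01 within cluster 1. The macrophage or monocyte-like cells held 14299.5 CPM in Smad3-WT and 8503 in Smad3-KO, a ratio of 0.595 (0.577 to 0.612). Fth1 in those cells was at 16928 and 21186 CPM, a ratio of 1.25 (1.23 to 1.28). The libraries thus differed in opposite directions for the chains in macrophage or monocyte-like cells, with neither ratio past 2-fold. With the classes of resolution 1.0 the ratios were 1.54 (1.51 to 1.58) for Fth1 and 0.766 (0.739 to 0.793) for Ftl1. That class also carried neutrophil mRNA, and among its cells with 0 UMIs of S100a8, S100a9, Il1r2 and Cxcr2 (532 and 68 cells) Fth1 was lower in Smad3-KO, at 11213 against 15809.7 CPM (ratio 0.709), while Ftl1 kept its direction at 8011 against 14944 CPM. Reads of Ftl1 may be shared with its near copy Ftl1-ps1, which was at 1700.09 and 1708 CPM in neutrophil-like cells and at 1497 and 645 CPM in macrophage or monocyte-like cells.

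Between the classes, Fth1 was higher in neutrophil-like than in macrophage or monocyte-like cells in each library, 2.45-fold (2.42 to 2.47) in Smad3-WT and 4.17-fold (4.10 to 4.26) in Smad3-KO. For Ftl1 the same quotient was 1.19 (1.17 to 1.21) in Smad3-WT and 2.19 (2.13 to 2.26) in Smad3-KO. Among the other classes the Fth1 level ran in Smad3-KO from 15900.8 CPM in fibroblast and LLC carcinoma-like cells through 13313 in dendritic-like and 11253 in B cell-like cells to 6071 in T or NK-like cells, and in Smad3-WT from 9867 in fibroblast and LLC carcinoma-like cells to 5435 in dendritic-like and 5112 in T or NK-like cells, the last pair with overlapping intervals. T or NK-like cells were at the low end for Fth1 in each library, leaving aside the 3 Smad3-WT B cell-like cells.

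A finer grouping at resolution 1.0 split the neutrophil-like cells further. Its largest Smad3-WT cluster (1353 Smad3-WT and 144 Smad3-KO cells) had similar Fth1 in both libraries, 34519.9 and 31925 CPM, and lower Ftl1 in Smad3-KO, 9311 against 13868 CPM. A second cluster present in both (323 and 55 cells), led by the stress and hypoxia genes Ddit3, Gadd45g and Hilpda, held Fth1 at 73151 CPM in Smad3-WT and 112702 in Smad3-KO, and Ftl1 at 30873 and 44845 CPM. Among clusters with at least 25 cells of a library, both chains were highest in this one, in Smad3-WT and in Smad3-KO, ahead of Smad3-KO cluster 3 at this resolution (794 cells), with Fth1 at 105502 and Ftl1 at 20682 CPM. One Smad3-KO barcode of the Ddit3 and Hilpda cluster had 1717 of its 2217 UMIs from haemoglobin genes, and without it the ratios were 1.61 for Fth1 and 1.52 for Ftl1.

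**Figure D3:**
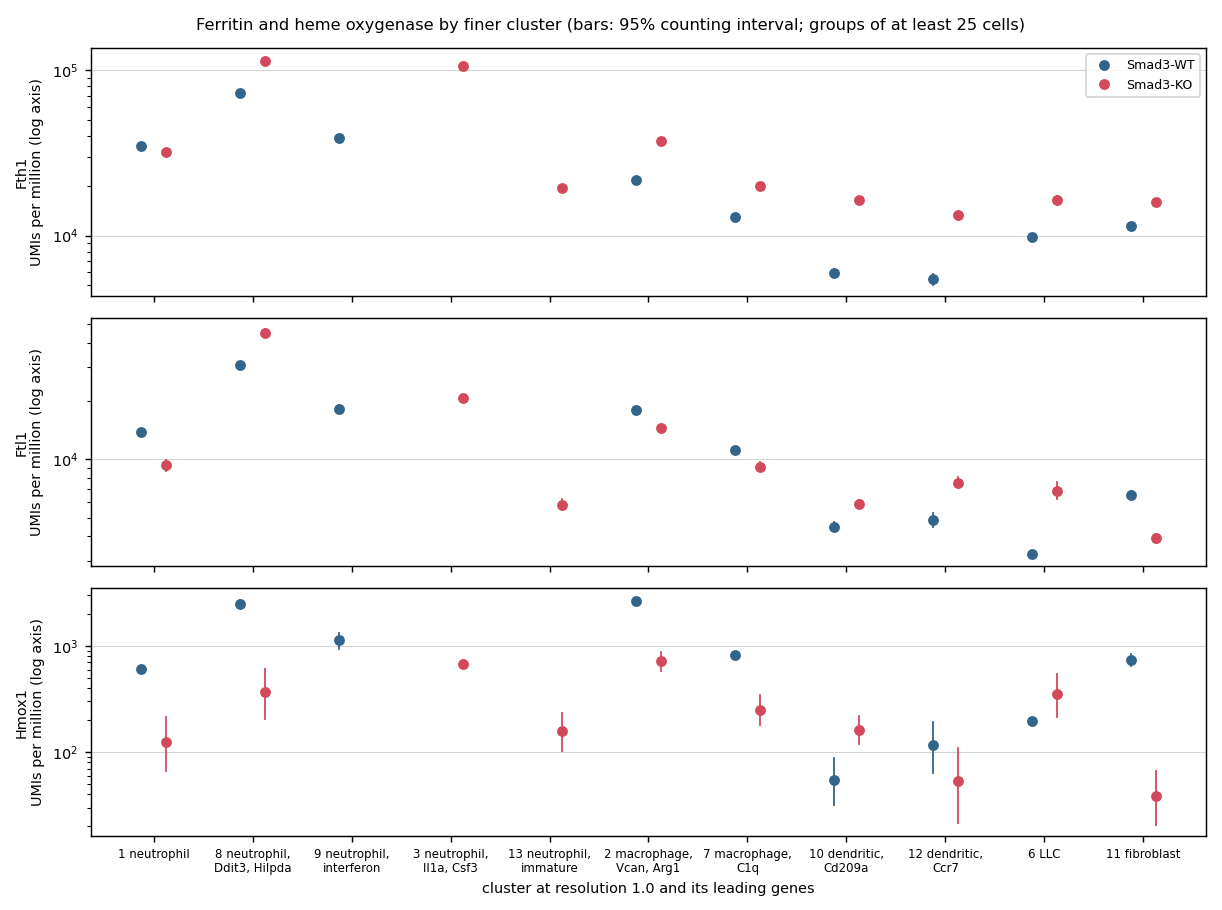
Fth1, Ftl1 and Hmox1 in CPM (log axes) in the clusters at resolution 1.0 with at least 25 cells of a library, blue for Smad3-WT and red for Smad3-KO, bars for 95% counting intervals. Fth1 and Ftl1 stand high in the Ddit3 and Hilpda cluster of both libraries, where Hmox1 was 2488 in Smad3-WT and 368 in Smad3-KO.

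Of the heme genes, Hmox1 was lower in the Smad3-KO library. Hmox1, which opens the heme ring, was at 967 CPM in neutrophil-like cells of the Smad3-WT and 559 in those of the Smad3-KO library (1587 and 738 UMIs), a ratio of 0.577 (0.528 to 0.631). Within cluster 1 the gap was wider, 967 against 193 CPM (1579 and 29 UMIs), a ratio of 0.199 (0.133 to 0.287), while Smad3-KO cluster 3 stood at 677 CPM. In the Ddit3 and Hilpda cluster it was 2488 against 368 CPM. The Hmox1 gap was thus present inside clusters that hold cells of both libraries, although 29 and 15 UMIs stand behind the Smad3-KO values there.

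Hmox1 in macrophage or monocyte-like cells was at 1768 CPM in Smad3-WT and 289 in Smad3-KO (8688 and 160 UMIs), a ratio of 0.164 (0.139 to 0.191). Of the 9610 genes with at least 20 UMIs in this class, 10.0% were at least 2-fold lower and 12.9% at least 2-fold higher in Smad3-KO. Hmox1, Slc40a1, Slc11a1 and Blvrb were the 4 of 8 members past 2-fold downward, and Tfrc the 1 upward. At resolution 1.0 the gap held in each macrophage cluster, 2679.9 against 720.5 CPM in the cells led by Vcan, Arg1 and Ccr2 (770 and 54 cells) and 819.9 against 251 CPM in the cells led by C1q genes (328 and 63 cells). The order of the classes also differed between libraries. Hmox1 in macrophage or monocyte-like cells was 1.83 times its neutrophil-like level in Smad3-WT (1.73 to 1.93) and 0.518 times in Smad3-KO (0.433 to 0.615). Over 11 alternatives these quotients kept their sides of 1, at 1.11 to 2.10 and 0.217 to 0.829. Single clusters did not all follow that order. Smad3-KO cluster 1 stood at 193 CPM, below the 289 of the macrophage or monocyte-like class. The Smad3-KO Vcan, Arg1 and Ccr2 cells stood above the neutrophil-like class at 559 CPM. The Smad3-WT C1q cells stood below it at 967.

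Hmox1 was lower in the other classes. It was at 222 and 98.8 CPM in fibroblast and LLC carcinoma-like cells, 115 and 53.6 in dendritic-like cells and 122 and 65.1 in T or NK-like cells of Smad3-WT and Smad3-KO, with overlapping intervals between the last pair of classes. At resolution 1.0, which parts fibroblast-like from LLC carcinoma-like cells, Hmox1 was at 745 and 38.6 CPM in the former (47 and 61 cells). The LLC carcinoma-like cells were at 196 and 349.5 CPM (402 and 34 cells, median 13206 and 654 UMIs), so the Smad3-KO value rests on few and shallow cells. The T or NK-like cells of that resolution (63 and 465 cells) were at 506 and 55.5 CPM. The main T or NK-like class, with 53 Smad3-WT cells and 24 Hmox1 UMIs in them, was at 122 CPM in Smad3-WT. The Smad3-WT value of this class thus depends on which few cells are assigned to it. The Cd209a-led dendritic cluster at resolution 1.0 (60 and 68 cells) went against the direction of the neutrophil-like and macrophage or monocyte-like classes. It stood at 55.0 CPM of Hmox1 in Smad3-WT and 163 in Smad3-KO (17 and 47 UMIs), a ratio of 2.97 (1.67 to 5.52). After thinning each cell to 500 UMIs, 20.7% of neutrophil-like cells of Smad3-WT mice and 19.5% of those of Smad3-KO mice had a UMI of Hmox1 (27.4% and 34.5% unthinned), against 2.43% of Smad3-KO B cell-like cells (median 1246.5 UMIs), a class with little Hmox1. Over the whole neutrophil-like class the share of cells with Hmox1 was thus close between libraries, while the CPM was not. Within cluster 1 the thinned share was 20.6% (18.8 to 22.5) in Smad3-WT and 8.42% (4.98 to 13.1) in Smad3-KO. Smad3-KO cluster 3 stood at 23.7%. For the macrophage or monocyte-like class, Hmox1 was seen after thinning in 28.6% and 18.9% of cells (58.3% and 38.3% unthinned).

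Blvrb, which reduces biliverdin and flavins, was mainly a gene of the other classes. It was at 36.6 CPM in neutrophil-like cells of Smad3-WT and 34.8 in those of Smad3-KO mice (60 and 46 UMIs), a ratio of 0.952 (0.634 to 1.42), and 0.748 (0.197 to 2.02) within cluster 1 from 58 and 4 UMIs. In the Ddit3 and Hilpda cluster Blvrb had 9 and 12 UMIs (33.5 and 295 CPM, ratio 8.79, 3.4 to 23.6, and 9.30 without the haemoglobin-rich barcode). The largest Smad3-WT cluster at resolution 1.0 had 40 and 0 UMIs (33.4 and 0 CPM), and the interval of its ratio (0 to 1.11) holds 1. The macrophage or monocyte-like class held Blvrb at 248 and 105 CPM, a ratio of 0.422 (0.318 to 0.549), and 0.647 with the classes of resolution 1.0. There the Vcan, Arg1 and Ccr2 cells were at 230.0 and 210.5 CPM (ratio 0.915) and the C1q cells at 305.5 and 138 CPM (ratio 0.452). Smad3-KO B cell-like cells held 178.5 CPM, above the Smad3-KO macrophage or monocyte-like class but below the Smad3-KO Vcan, Arg1 and Ccr2 cells. Fibroblast and LLC carcinoma-like cells held 98.7 and 137 CPM. Within each library Blvrb was higher in macrophage or monocyte-like than in neutrophil-like cells, 6.79-fold (5.24 to 8.96) in Smad3-WT and 3.01-fold (2.01 to 4.53) in Smad3-KO.

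**Figure D4:**
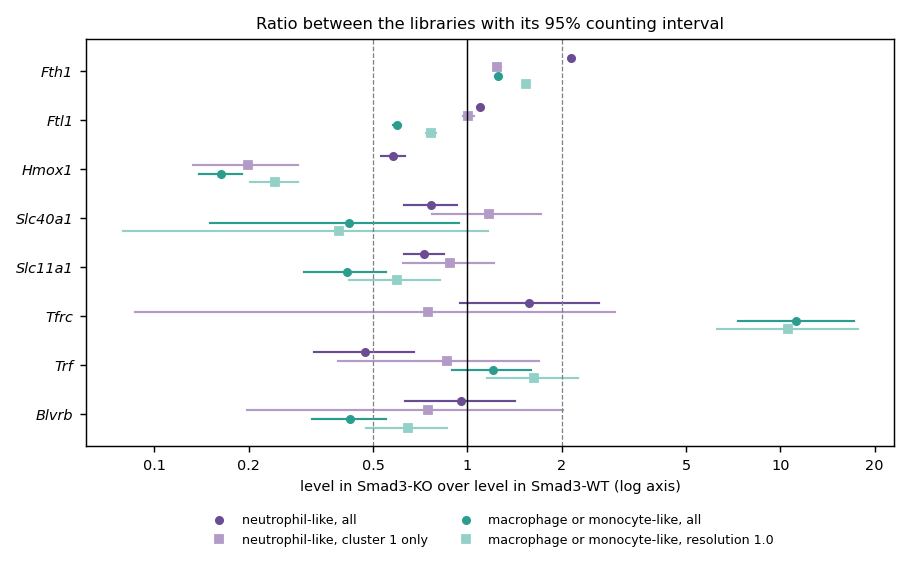
Ratio of the Smad3-KO to the Smad3-WT level of each gene (log axis) with its 95% counting interval, in neutrophil-like cells (purple; light squares for cluster 1 only) and in macrophage or monocyte-like cells (green; light squares for classes at resolution 1.0). Dashed lines mark 2-fold, and Hmox1 lies left of 1 in all 4 sets, from 0.164 to 0.577, while Tfrc lies at 11.2 and 10.6 in macrophage or monocyte-like cells.

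The transport genes rested on fewer UMIs than ferritin. Ferroportin, the exporter, was at 165 CPM of Slc40a1 in Smad3-WT and 126 in Smad3-KO neutrophil-like cells (270 and 166 UMIs), a ratio of 0.763 (0.625 to 0.93), which turned to 1.17 (0.768 to 1.72) within cluster 1. Slc40a1 was higher in neutrophil-like than in macrophage or monocyte-like cells in each library, 6.37-fold (5.14 to 7.93) in Smad3-WT and 11.6-fold (5.21 to 32.0) in Smad3-KO. Macrophage or monocyte-like cells held 25.8 and 10.8 CPM (127 and 6 UMIs), a ratio of 0.420 (0.151 to 0.939). Neutrophil markers in those cells stood at a median of 0.0728 times (Smad3-WT) and 0.0901 times (Smad3-KO) their neutrophil-like level, and Slc40a1 at 0.157 and 0.0863 times, above the median of those markers in Smad3-WT and near it in Smad3-KO. In the macrophage or monocyte-like cells with 0 UMIs of the 4 neutrophil genes, 31 UMIs of Slc40a1 were counted in Smad3-WT and 0 in Smad3-KO. The totals of these cells were 2072076 and 202719 UMIs, which gave 14.96 CPM (10.17 to 21.24) and 0 CPM (0 to 18.2). The intervals overlapped, so these counts do not show a lower level in Smad3-KO. Among the Smad3-KO neutrophil-like clusters, Slc40a1 was at 193 CPM in cluster 1, 106 in cluster 3 and 186 in the immature cluster 8.

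NRAMP1, the phagosomal transporter, was at 302 CPM of Slc11a1 in Smad3-WT and 219.5 in Smad3-KO neutrophil-like cells (496 and 290 UMIs), a ratio of 0.726 (0.626 to 0.841). Within cluster 1 the ratio was 0.880, with an interval (0.621 to 1.22) that holds 1. The macrophage or monocyte-like cells had 211 and 86.7 CPM (1036 and 48 UMIs), a ratio of 0.411 (0.301 to 0.550), and 0.594 with the classes of resolution 1.0. At that resolution the Vcan, Arg1 and Ccr2 cells had a ratio of 0.549 (0.324 to 0.874). The C1q cells had 0.721, with an interval (0.435 to 1.13) that holds 1. Over each whole class Slc11a1 was lower in Smad3-KO, past 2-fold in the macrophage or monocyte-like class alone, and the difference between the classes was not tested. The Ddit3 and Hilpda cluster stood apart, at 164 CPM in Smad3-WT and 417.5 in Smad3-KO (44 and 17 UMIs), a ratio of 2.55 (1.36 to 4.55). After thinning, 13.4% and 10.1% of neutrophil-like cells had a UMI of Slc11a1 (20.7% and 20.4% unthinned), against 0.868% of Smad3-KO B cell-like cells.

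The transferrin receptor, through which cells take up iron, showed the widest ratio of the 8 members. Tfrc was at 8.55 CPM in Smad3-WT and 95.8 in Smad3-KO macrophage or monocyte-like cells (42 and 53 UMIs), a ratio of 11.2 (7.33 to 17.2). A single Smad3-KO barcode gave 17 of the 53 UMIs, no Smad3-WT barcode gave more than 3, and without the top barcode of each library the ratio was 8.32 (5.14 to 13.4). At resolution 1.0 the Tfrc UMIs of Smad3-KO lay in the cells led by Vcan, Arg1 and Ccr2 (23 UMIs, 17 of them in that barcode) and in the Cd209a-led cells that are then named dendritic (24 UMIs, 83.3 CPM, against 2 UMIs and 6.47 CPM in Smad3-WT). The macrophage or monocyte-like class of that resolution had a Tfrc ratio of 10.6, and of 4.37 (1.94 to 8.93) without the top barcodes, from 38 and 10 UMIs. Cells led by C1q genes stood at 13.3 and 25.1 CPM (26 and 4 UMIs), a ratio of 1.89 whose interval (0.478 to 5.44) holds 1. Tfrc was thus higher in the Smad3-KO macrophage or monocyte-like class at both resolutions, with a size that 1 cell and the naming of the Cd209a cells set in part. In neutrophil-like cells Tfrc was at 18.3 and 28.8 CPM (30 and 38 UMIs), a ratio of 1.57 (0.949 to 2.63) and of 0.748 (0.0865 to 2.96) within cluster 1 from 29 and 2 UMIs, so no difference was detectable at this depth. Fibroblast and LLC carcinoma-like cells were at 23.6 and 12.7 CPM.

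Transferrin, better known as a plasma protein of the liver, was found at low levels in both myeloid classes. Trf was at 68.9 CPM in Smad3-WT and 32.5 in Smad3-KO neutrophil-like cells (113 and 43 UMIs), a ratio of 0.473 (0.325 to 0.677), but 0.864 (0.385 to 1.70) within cluster 1, where Smad3-KO had 9 UMIs. Cluster 3 of Smad3-KO held 28.7 CPM. The macrophage or monocyte-like cells held Trf at 83.8 and 101 CPM (412 and 56 UMIs), a ratio of 1.21 (0.896 to 1.60), with the C1q-led cells at 134 and 194 CPM. Trf was thus past 2-fold in the whole neutrophil-like class and not in the cluster that the libraries share.

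Within each library, the macrophage or monocyte-like class was set against the neutrophil-like class for all 8 genes. In Smad3-WT, 49.4% of 9611 genes were at least 2-fold higher and 11.7% at least 2-fold lower in the macrophage or monocyte-like class, and 1 of 8 members (Blvrb) was higher and 3 (Fth1, Slc40a1 and Tfrc) lower. In Smad3-KO, 48.7% of 6135 genes were higher and 14.7% lower, and 3 members (Tfrc, Trf and Blvrb) were higher and 4 (Fth1, Ftl1, Slc40a1 and Slc11a1) lower. Fth1 and Slc40a1 on the neutrophil side and Blvrb on the macrophage side lay past 2-fold in both libraries. Tfrc lay past 2-fold on opposite sides, at 0.467 (0.286 to 0.773) times the neutrophil-like level in Smad3-WT and 3.33 (2.15 to 5.19) times in Smad3-KO. The Smad3-WT quotient was past 2-fold in 6 of 11 alternatives (0.283 to 0.668), and the Smad3-KO quotient fell to 1.39 with median-of-ratios scaling. The Smad3-KO quotient was not recomputed without the barcode that held most Tfrc UMIs. Without it, the Smad3-KO macrophage or monocyte-like class was at 66.1 CPM, and at 36.5 CPM with the classes of resolution 1.0. Smad3-KO neutrophil-like cells were at 28.8 CPM, so the size of this quotient depends on 1 cell and on the class naming. The levels over all kept cells mix these classes, and gave ratios of Smad3-KO to Smad3-WT of 2.18 for Fth1, 0.923 for Ftl1, 0.269 for Hmox1, 1.39 for Slc40a1, 0.677 for Slc11a1, 1.90 for Tfrc, 0.630 for Trf and 0.566 for Blvrb. Without the quality filter, which brings back the barcodes above the upper limit, Ftl1 (1.44), Slc11a1 (1.19) and Trf (1.08) lay on the other side of 1.

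The authors' table of 13 clusters, made from all barcodes of both libraries, gave the same genes on another grouping, as the authors' average UMIs per cell on a common depth. Fth1 was highest in cluster 3 of that table, at 150.0, followed by cluster 4 at 92.3 and cluster 1 at 58.1, all of which had neutrophil markers as their highest list, and lowest in cluster 9, at 5.98, where neutrophil and T markers summed to 4.59 and 4.49. Ftl1 was spread more evenly over clusters 3, 4 and 5, at 30.4, 28.2 and 24.8, the last with both neutrophil and macrophage or monocyte markers (summed averages 14.3 and 10.2). Hmox1 was highest in cluster 5, at 3.64, then in cluster 4, at 1.79. Cluster 4 also carried erythroid markers, with summed averages of 92.4 for neutrophil and 7.36 for erythroid markers. Slc40a1 and Slc11a1 were both highest in cluster 6, a neutrophil cluster with Fth1 at 31.2, at 0.252 and 0.506. Trf was highest in cluster 12, at 0.281, which also carried both lists (16.7 and 14.9). Blvrb was highest in cluster 7, at 0.335, followed by cluster 5 at 0.292 and cluster 8 at 0.265, and the highest lists of clusters 7 and 8 were those of macrophages or monocytes and of B cells. Tfrc ran from 0.006 to 0.0598, with clusters 13 and 12 at the top, and cluster 13 had neutrophil markers at 11.2 and dendritic markers at 3.19.

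**Figure D5:**
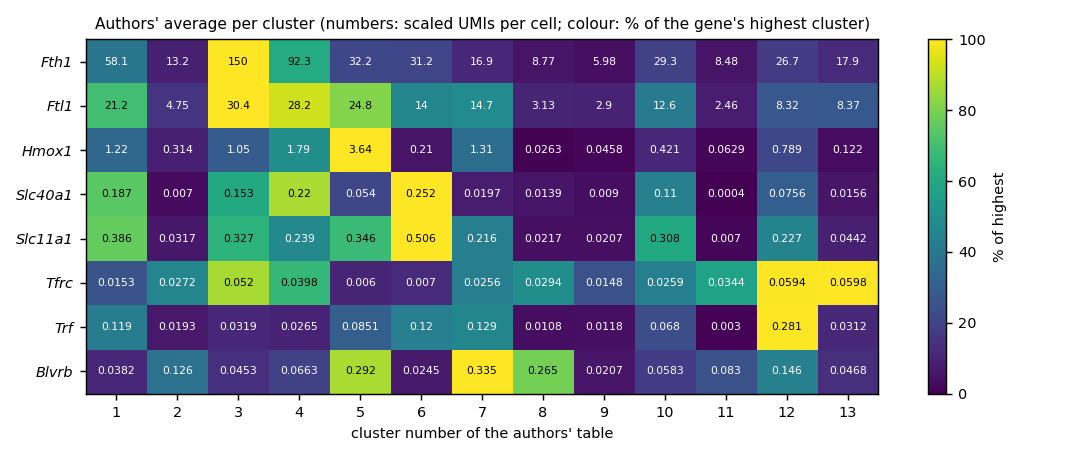
The authors' average of each gene (rows, scaled UMIs per cell) in their 13 clusters (columns), with colour giving the percent of the gene's highest cluster. Fth1 peaks in cluster 3 at 150.0, Hmox1 in cluster 5 at 3.64, and Slc40a1 and Slc11a1 in cluster 6.

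Among 9069 genes, those whose averages over these 13 clusters were most like a member were named by Pearson's r of log2 averages, a description over 13 points that share libraries and depth. For Fth1 they were Fnip1 (r = 0.980), the lipid droplet gene Hilpda (0.970) and the stress factor Atf3 (0.968). Ftl1 was closest to Ftl1-ps1 (0.987), Hmox1 to Cstb (0.939), with the macrophage gene Cd68 (0.926) also near, Slc40a1 to Grina (0.989), and Slc11a1 to Sirpb1c (0.992) and the complement receptor C5ar1 (0.989). Trf was closest to Tfe3 (0.965) and Blvrb to Snx2 (0.885). Across single neutrophil-like cells, Spearman's rho between Fth1 and Ftl1 shares was 0.382 in Smad3-WT and 0.489 in Smad3-KO, and between Fth1 and Hmox1 0.324 and 0.196, and these shares divide by the same UMI total.

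The 52 other genes of a list of 60 iron and heme genes were read in the same way. In neutrophil-like cells 26 of them had at least 20 UMIs, of which 4 were past 2-fold higher and 2 past 2-fold lower in Smad3-KO, beside 7.76% and 18.2% of all genes tested. The ferric reductase Steap4 stood at 26.8 and 87.1 CPM (ratio 3.25, 2.27 to 4.70), and at 26.9 and 186 CPM within cluster 1. Lipocalin 2 (Lcn2), which binds the siderophores that microbes use to take iron, stood at 603 and 8649 CPM (ratio 14.3), and at 597 and 3134 CPM within cluster 1. Smad3-KO lymphocytes had Lcn2 too, at 648 CPM in B cell-like and 296 CPM in T or NK-like cells. Lactoferrin (Ltf) had 12 and 1062 UMIs, 1005 of the latter in the 65 cells of cluster 8, and hepcidin (Hamp), the hormone that removes ferroportin, had 1 and 32 UMIs, and Smad3-KO dendritic-like cells held it at 115 CPM (15 UMIs) and B cell-like cells at 18.7 CPM (18 UMIs), against 24.2 in neutrophil-like cells. The lower genes were the heme transporter Slc48a1, with 38 and 9 UMIs (ratio 0.294, 0.125 to 0.619), and Gpx4, an enzyme that reduces lipid peroxides, with 271 and 117 CPM (ratio 0.433, 0.358 to 0.520). Neither was past 2-fold lower within cluster 1, where Slc48a1 was at 23.3 and 33.2 CPM (38 and 5 UMIs) and Gpx4 at 272 and 226 CPM.

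Among macrophage or monocyte-like cells 39 of the 52 had at least 20 UMIs, of which 4 were past 2-fold higher and 1 lower, beside 12.9% and 10.0% of all genes tested. Lcn2 was at 41.3 and 981 CPM there, and neutrophil markers of Smad3-KO stood in this class at a median of 0.0901 times their neutrophil-like level, which for Lcn2 was 8649 CPM, so its part from neutrophil RNA cannot be told apart. The other higher genes were the haemoglobin receptor Cd163 (21 and 15 UMIs, ratio 6.34), ceruloplasmin (Cp, 21 and 8 UMIs, ratio 3.38) and the heme-binding protein Hebp1 (58 and 27 UMIs, ratio 4.13). The lower one was Lrp1, a receptor that takes up heme bound to hemopexin, at 270.4 and 110.2 CPM (ratio 0.408). The median ratio was 0.990 over the list and 0.795 over all genes in neutrophil-like cells, and 0.950 and 1.11 in macrophage or monocyte-like cells. Markers of macrophages summed in the macrophage or monocyte-like class to 10725 CPM for Smad3-WT and 6474 for Smad3-KO, and neutrophil markers to 5676 and 7094. Dendritic markers summed to 125 and 654 CPM in it, T markers to 50.3 and 390.3, and B markers to 36.2 and 394. The part of these cells and of their RNA in the ratios of this class was not tested beyond the values given for cells without the 4 neutrophil genes, where Hmox1 was at 1985 and 276 CPM, Blvrb at 266 and 138, and Tfrc at 5.79 and 88.8 (12 and 18 UMIs).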

How the data were processed

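Raw counts of UMIs, per gene and barcode, form the deposited matrix, which the authors made with Cell Ranger 3.0.2 on mm10, per the file headers and the processing notes. The averages in the deposited table of the libraries are a signal, each gene's share of the summed UMIs of a library on a scale of 1311. The cluster averages were made by the authors for 13 clusters of all barcodes. Their log2 fold change and p-value columns were not used. Barcode suffixes were tied to genotypes through the deposited library averages, which the matrix reproduced with largest differences of 4.91e-09 for Smad3-KO and 3.58e-08 for Smad3-WT.

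The filter kept cells with 200 genes or more, a mitochondrial share below 10%, and UMIs above 500 and below 20000. Clusters came from scanpy 1.11.5 with igraph 0.11.9 (2000 variable genes without the 60 iron and heme genes, 100 principal components, 15 neighbours, Louvain resolution 0.2, the lowest of a grid from 0.1 with at least 8 clusters, seed 1). A cluster took the name of the list with most markers at 2-fold in at least 10% of its cells, with 3 markers needed. No doublet caller was run, and doublets may remain in any class. Further tools were scipy 1.17.1, matplotlib 3.10.9, numpy 2.4.6, Python 3.11.15 and pandas 2.3.3. With 1 library per genotype no test was made. A gene was called when past 2-fold with at least 20 UMIs in both libraries together. Thinning to 500 UMIs left out 0 cells. The intervals and the 2-fold calls were tested on simulated counts that held counting error alone, which the intervals assume. That test therefore does not cover variation between cells or libraries, and the clustering was not tested.

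Named are the 8 members, other list genes called with an interval clear of 1, the 3 genes most like each member over the 13 clusters (log2 of the average plus 0.01, genes with at least 200 UMIs; the text gives the nearest, and that of Tfrc is not reported here), near copies and class markers. Leading genes of clusters fall outside this rule and were chosen after their values were seen. The members and lists were chosen with earlier results of these data known. Alternatives covered the filter, clustering, scaling and removal of single barcodes.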

Additional observations from a re-analysis of the deposited data

Results flagged for a closer look

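Ftl1 was drawn out because its ratio of Smad3-KO to Smad3-WT went opposite ways in the myeloid classes, 1.10 in neutrophil-like and 0.595 in macrophage or monocyte-like cells. With 1 library per genotype the difference between the classes was not tested. Within cluster 1 the neutrophil-like ratio was 1.01, and with the classes of resolution 1.0 the macrophage or monocyte-like ratio was 0.766.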

How the results depend on the processing

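No paired analysis was possible because each genotype has 1 library, and for the same reason no replicate could be left out. The number of members past 2-fold higher in neutrophil-like cells fell from 1 to 0 within cluster 1, and the number lower fell to 0 with the mean of per-cell CPM and to 0 with median-of-ratios scaling. In macrophage or monocyte-like cells the number lower was 2 at resolution 1.0, and over all cells the number higher was 2 without the quality filter. Between classes, 2 members were higher in Smad3-WT macrophage or monocyte-like cells with the mean of per-cell CPM, without mitochondrial and ribosomal protein genes in the totals and in cells without markers of the other class, while in Smad3-KO the number higher was 0 with median-of-ratios scaling and the number lower was 2 at resolution 1.0. Of the 60 iron and heme genes, 10 were higher and 10 lower in neutrophil-like cells with no filter and 0.5 UMIs added, and 1 was lower with median-of-ratios scaling, and in macrophage or monocyte-like cells 1 was higher at 100 UMIs and 16 with no filter. Ftmt, Tfr2, Hpx, Heph, Hamp, Flvcr2 and Alas2 are among these 16, although none had a UMI in that class in either library. Their added 0.5 UMIs were divided by class totals of 4914982 (Smad3-WT) and 553424 (Smad3-KO) UMIs. Depth therefore set these calls, which say nothing about the level of those genes. The share of all genes past 2-fold was taken at the main setting only. These counts therefore cannot be set against all genes at the same setting. Other causes of the changes were not tested.

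With median-of-ratios scaling, log2 ratios moved together by 0.27 in neutrophil-like and -0.24 in macrophage or monocyte-like cells, and the class comparisons by -0.72 in Smad3-WT and -1.26 in Smad3-KO. Over 14 alternatives Hmox1 in macrophage or monocyte-like cells ran from 0.138 to 0.254 and Tfrc from 7.93 to 15.3, past 2-fold in all 14. Outside these 14, the class of resolution 1.0 without the top barcodes gave 4.37 (1.94 to 8.93) for Tfrc. Over 16 alternatives in neutrophil-like cells Fth1 ran from 1.25 to 2.58, past 2-fold in 15, Hmox1 from 0.199 to 0.698 and Trf from 0.452 to 0.864. Cluster 1 only, and the runs without haemoglobin-rich barcodes, without shared barcodes, without a member's top barcode (for Tfrc also at resolution 1.0) and without Fth1 and Ftl1 in the totals, were chosen after seeing the data. Depth limits Tfrc, Trf and Blvrb in both myeloid classes, and Slc40a1 and Slc11a1 in macrophage or monocyte-like cells, each with under 60 Smad3-KO UMIs.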
